A study of Mus musculus with 21 samples.

Results

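Secreted complement, coagulation and fibrinolysis factors of the liver that are not classic acute phase genes were followed in livers of Mdr2-/- mice and of control mice after surgical removal of part of the liver. The genes were chosen by function and not by their values, though with earlier results of these data known. Of the 32 genes chosen, 31 were among the 12393 genes that a probe set of the array named on its own. No probe set here named Cpb2, which encodes a plasma inhibitor of fibrinolysis, and it was not analysed. All 31 genes passed the filter for testing, which asked for 3 or more arrays with a log2 value over 4. In each array, 1 probe set stood for each gene, the one with the highest mean.

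Mdr2-/- mice (KO) lack Abcb4, the canalicular phospholipid transporter of hepatocytes, and develop chronic liver inflammation. The KO groups comprised 6 livers on day 0, 3 on day 2 and 3 on day 6, and the control groups comprised 3 livers on each of these days. All 21 samples came from male mice aged 9 months that underwent a 30% partial hepatectomy. The day 0 sample is the lobe that was removed, and later samples came from the remaining liver of the same animals, as far as the mouse numbers match. The strain is given as FVB129P2 for KO mice and as FVB129P2/FVBNJ for control mice, so that effects of the deletion and of the strain background cannot be told apart. The Abcb4 genotype of the control mice, heterozygous or wild type, is not given in the sources used. No sham-operated group was analysed here, so the effects of resection and of surgery itself cannot be told apart.

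Hepatocytes make most of the complement and clotting proteins of plasma and secrete them as inactive precursors. In complement, the lectin pathway begins when mannose-binding lectins and their associated serine proteases bind microbial or damaged surfaces, and it ends in the membrane attack complex of the terminal components. In coagulation, a chain of serine proteases that depend on vitamin K, on contact factors and on cofactors leads to thrombin, which serpins restrain, and plasmin dissolves the clot. Loss of these proteins from plasma is a long-known sign of failing liver synthesis.

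Abcb4 had GCRMA log2 values of 7.25 to 8.96 in KO arrays and of 9.23 to 10.33 in control arrays, which do not overlap. Hepatocyte markers were present in every array, with Alb, the gene of albumin, at 14.66 to 15.12. Of 6 tested hepatocyte markers, 1 was called between groups: Hpd, the gene of a tyrosine breakdown enzyme, was lower in KO than in control livers on day 0, by −0.65 ± 0.18, higher in KO livers on day 2, by 0.88 ± 0.20, lower in control livers on day 2 than on day 0, by −1.34 ± 0.20, and higher on day 6 than on day 2, by 0.97 ± 0.20 (log2, SE, limma). In these 4 comparisons, in the same order, 9.66%, 5.71%, 9.51% and 1.94% of all tested genes were called. Of 6 tested markers of stellate cells and fibroblasts, all 6 were higher in KO livers on day 0, with a median log2 difference of 3.99. All 6 had an unadjusted p below 0.05 (limma), against 22.3% of all tested genes. Col1a1 and Col1a2 had control means on day 0 of 2.43 and 3.53, below the filter's log2 of 4, which bears on the median. Des and Lrat, also listed, did not pass the filter. RNA quality differed between arrays: the difference between the 3' and 5' probe sets of Gapdh was 9.5 in control day 2 mouse 265, 2.03 in KO day 0 mouse 337 and 1.58 in control day 2 mouse 263, against at most 0.94 in the others. In such bulk samples, fewer cells of a type and less RNA per cell cannot be told apart.

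Over the 31 genes and all arrays, log2 values ran from 7.23 to 14.36. The 6 group means lay within 0.5 of each other for 8 genes, among them the gene of prothrombin (F2), that of protein C (Proc), F13b and Hc, the gene of complement component C5. They were more than 1 apart for 6 genes, which were C6, Pros1, Mbl1, Klkb1, F7 and F11. FVB/NJ mice are known to carry a null allele of Hc, and whether these mice carried it was not tested.

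**Figure D1:**
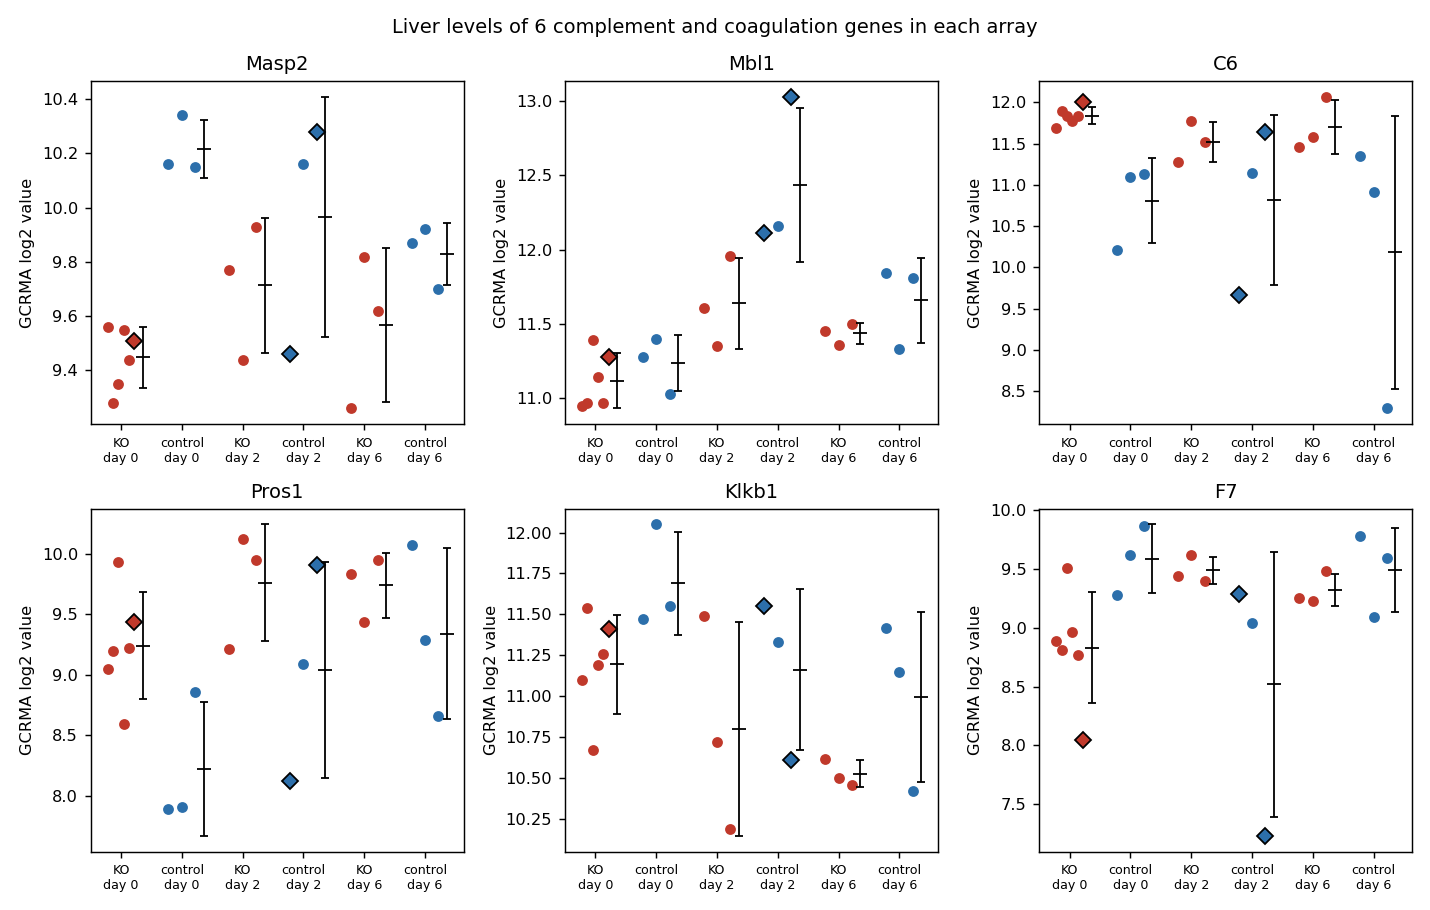
GCRMA log2 values (y axes, scaled for each gene) of Masp2, Mbl1, C6, Pros1, Klkb1 and F7 in each array, with KO in red to the left of control in blue on days 0, 2 and 6. Black bars show the mean and SD of a group, and outlined diamonds mark the 3 arrays with a Gapdh 3' minus 5' difference above 1. The 6 KO values of Masp2 on day 0 lie between 9.28 and 9.56, below the 3 control values.

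RefSeq promoter windows of build GRCm38.p6, from 250 bases before to 50 after the gene's start, were held for 26 of the 32 genes, and those of C2, Cfi, Kng1, Masp1, Plg and Proc were not used here. Mbl1 and Mbl2 are shown because they encode the 2 mannose-binding lectins of the mouse, and because Mbl1 passed the test for a change in control livers. Capitals mark the longest run of letters that the 2 windows share, CTGGGGTTGAAGG, of 13 bases, which begins at position −23 relative to the start of Mbl1 and at −57 relative to that of Mbl2 and lies in 3 of 32851 promoter windows. Those 3 windows are the ones of Mbl1 and Mbl2, from which the run was picked, and that of Slc25a53. The Mbl1 window is chr14:41151206-41151505 and the Mbl2 window chr19:30232678-30232977, both on the plus strand.
Mbl1: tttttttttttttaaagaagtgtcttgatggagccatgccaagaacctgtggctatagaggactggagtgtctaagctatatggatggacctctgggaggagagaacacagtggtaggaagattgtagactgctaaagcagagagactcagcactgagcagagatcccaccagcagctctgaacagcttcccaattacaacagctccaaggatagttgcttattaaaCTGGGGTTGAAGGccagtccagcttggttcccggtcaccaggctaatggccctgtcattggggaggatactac
Mbl2: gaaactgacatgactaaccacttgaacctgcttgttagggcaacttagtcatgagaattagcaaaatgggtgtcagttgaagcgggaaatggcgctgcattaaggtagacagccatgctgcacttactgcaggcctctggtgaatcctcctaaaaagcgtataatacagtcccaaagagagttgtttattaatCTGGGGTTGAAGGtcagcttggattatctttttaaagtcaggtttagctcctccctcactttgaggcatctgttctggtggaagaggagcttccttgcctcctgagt

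Masp2 is shown because it was the 1 gene that passed the test for a difference between KO and control livers on day 0. Its window is chr4:148602294-148602593 on the plus strand, its RefSeq start lies within the annotated span of the gene, and it held none of 4 motifs searched on both strands: GTTAAT (part of the HNF1 site), AAGTCCA (part of the HNF4 site), TGTTTAC (FOXA) and TTGCNNAA (C/EBP).
Masp2: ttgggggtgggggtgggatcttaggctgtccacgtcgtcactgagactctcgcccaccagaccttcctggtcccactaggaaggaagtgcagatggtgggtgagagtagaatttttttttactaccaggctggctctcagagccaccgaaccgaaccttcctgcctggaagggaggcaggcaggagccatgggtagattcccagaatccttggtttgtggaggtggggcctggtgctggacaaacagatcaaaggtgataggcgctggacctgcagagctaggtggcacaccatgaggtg

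The FOXA letters lay in 2 of the 26 windows, those of the neighbouring contact factor genes F11 and Klkb1, against 3.65% of all windows. They are printed in capitals as GTAAACA, the reverse complement, in F11 at chr8:45261982-45262281 and in Klkb1 at chr8:45294786-45295085, both on the minus strand. The HNF1 letters lay in 9 of 26 windows (C4bp, F13b, Hc, F2, C8b, C8a, Hgfac, Proz and Vtn), which is 34.6%, against 7.1% of all windows. The C/EBP letters lay in 6 windows, 23.1% against 10.8%, and the HNF4 letters in that of F10 alone. These are matches of letters and not measured binding.
F11: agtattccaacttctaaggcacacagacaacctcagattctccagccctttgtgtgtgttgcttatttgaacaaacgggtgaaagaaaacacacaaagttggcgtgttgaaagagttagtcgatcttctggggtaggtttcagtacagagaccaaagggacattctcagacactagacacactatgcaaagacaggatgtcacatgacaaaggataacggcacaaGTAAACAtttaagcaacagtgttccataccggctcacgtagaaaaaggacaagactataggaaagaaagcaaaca
Klkb1: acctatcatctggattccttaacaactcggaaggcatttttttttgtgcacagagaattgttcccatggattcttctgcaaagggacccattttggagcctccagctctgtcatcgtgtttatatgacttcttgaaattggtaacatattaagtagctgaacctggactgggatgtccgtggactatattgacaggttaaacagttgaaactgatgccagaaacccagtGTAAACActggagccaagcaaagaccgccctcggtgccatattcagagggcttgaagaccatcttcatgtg

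The comparison of KO with control livers on day 0 addresses the state of these genes in the chronically inflamed liver before resection. With an adjusted p threshold of 0.05 in a limma model of all 6 groups, Masp2 was lower in KO livers and no other gene of the 31 was called, against 2.87% of all 7320 tested genes called lower and 9.66% called in either direction. At an unadjusted p below 0.05 there were 7 of 31, against 22.3% of all genes. With array weights 7 of 31 were called, against 19.3% of all genes, and when only these 2 groups were fitted 5 of 31, against 14.4%. The median log2 difference was −0.05 for the 31 genes and 0.02 for all tested genes, and the median size of the difference was 0.12 against 0.27. The 95% interval of the difference lay within a 2-fold change either way for 22 of the 31 genes, against 64.0% of all genes.

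Masp2 encodes MASP-2, the lectin pathway protease that cleaves C4 and C2. Its log2 values on day 0 were 9.56, 9.28, 9.35, 9.55, 9.44 and 9.51 in KO mice 250, 254, 258, 312, 332 and 337, against 10.16, 10.34 and 10.15 in control mice 263, 265 and 303. The highest KO value lay below the lowest control value. The mean was 9.45 ± 0.11 in KO livers and 10.22 ± 0.11 in control livers (SD, n = 6 and 3), a log2 difference of −0.77 ± 0.18 (SE) or 0.587-fold, with an adjusted p of 0.00838 (limma). Over 20 alternative settings the difference ran from −0.91 to −0.70. Without control mouse 265 on day 0 the adjusted p was 0.0606, and the call was lost. The second probe set of Masp2 gave −0.63 ± 0.21, with an adjusted p of 0.0726 in a limma fit of all probe sets. The mean log2 value over the 6 hepatocyte markers was 14.20 to 14.37 in KO livers on day 0 and 14.08 to 14.46 in control livers, and its part in the difference of Masp2 was not tested.

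After resection the groups overlapped for Masp2. Its values on day 2 were 9.77, 9.44 and 9.93 in KO mice 250, 254 and 258, and 9.46, 10.16 and 10.28 in control mice 263, 264 and 265. On day 6 they were 9.26, 9.82 and 9.62 in KO mice 312, 332 and 337, and 9.87, 9.70 and 9.92 in control mice 303, 392 and 393. KO minus control was −0.25 ± 0.20 on day 2 and −0.26 ± 0.20 on day 6 (log2, SE), and neither passed the test.

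Masp1 encodes the protease that activates MASP-2, and also the related proteins MASP-3 and MAp44. Its chosen probe set had 9.39 to 10.20 with a median of 9.94 in KO livers on day 0, against 10.40, 10.48 and 10.69 in control livers. The groups did not overlap, and the log2 difference of −0.67 ± 0.21 had an adjusted p of 0.0548 (limma). Of its 5 probe sets, 2 others passed the filter and gave 0.38 ± 0.24 and −0.06 ± 0.26, so these 3 disagreed in direction. The mean of all 5, which includes 2 that did not pass the filter, gave −0.07 with an adjusted p of 0.821. The lectins themselves showed differences of −0.12 ± 0.20 for Mbl1 and −0.02 ± 0.22 for Mbl2, and C2, the substrate of MASP-2 and of C1s, had 0.25 ± 0.29 (log2, SE).

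**Figure D2:**
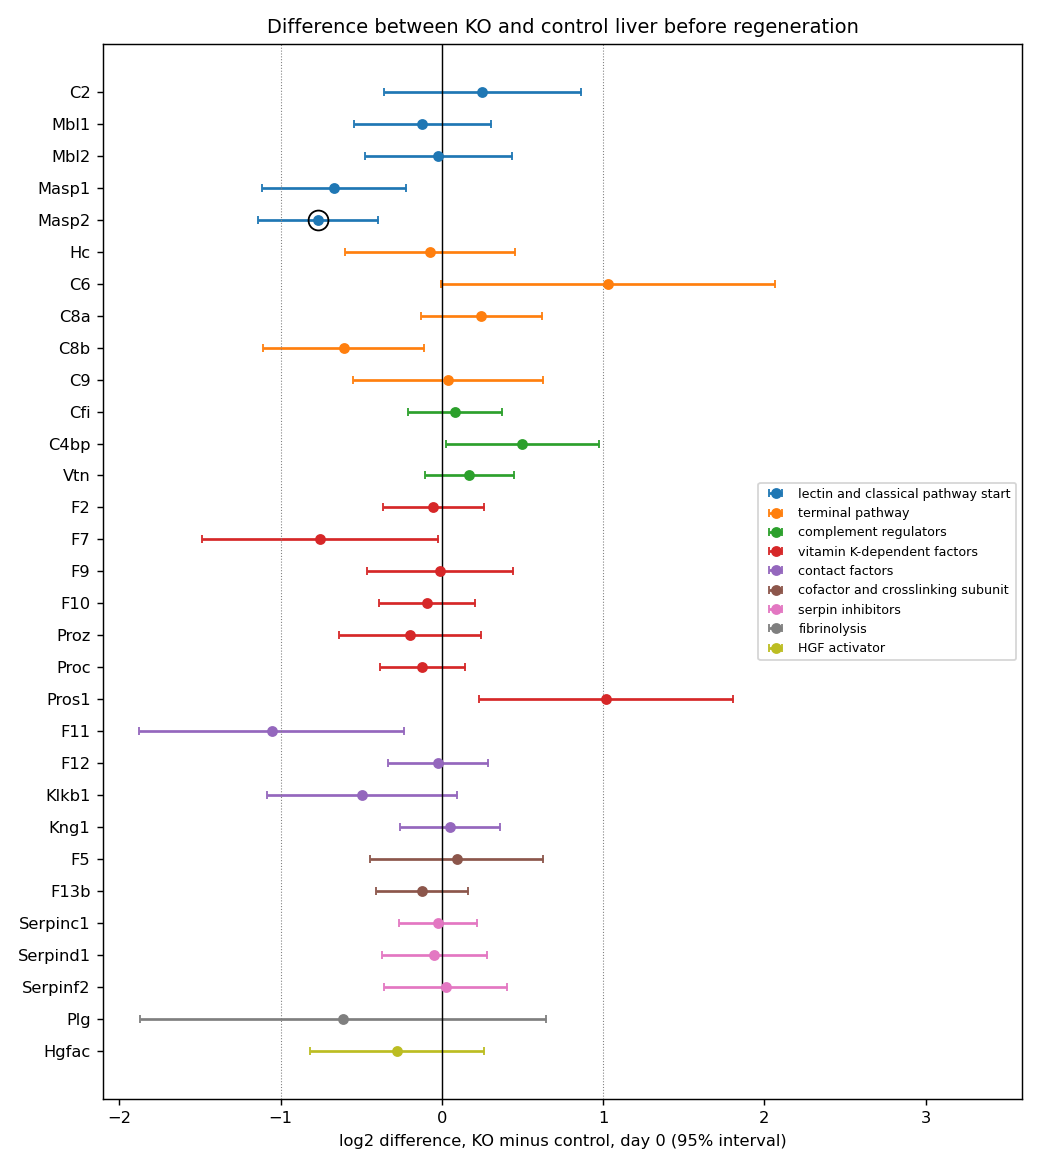
Log2 difference of KO minus control livers on day 0 (x axis) for the 31 genes (rows), coloured by role, with 95% intervals from limma. The circled point is Masp2, the gene that passed the adjusted threshold, and dotted lines mark a 2-fold change.

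Among terminal components, which assemble the membrane attack complex, C6 and C8b had the largest differences and neither passed the test. C6 had 11.69, 11.89, 11.84, 11.78, 11.83 and 12.01 in KO mice 250, 254, 258, 312, 332 and 337 on day 0, against 10.21, 11.09 and 11.13 in control mice 263, 265 and 303. All KO values lay above all control values, and the log2 difference of 1.03 ± 0.49 had an adjusted p of 0.227 (limma). C8b, the beta chain of C8, was at −0.61 ± 0.24 with overlapping groups, and its neighbour on chromosome 4, C8a, was at 0.25 ± 0.18. Hc and C9 were at −0.07 ± 0.25 and 0.04 ± 0.28 (log2, SE).

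On the later days, some control livers again had low values of C6. On day 2 it had 11.28, 11.77 and 11.52 in KO mice 250, 254 and 258, and 9.66, 11.15 and 11.64 in control mice 263, 264 and 265. On day 6 it had 11.46, 11.58 and 12.07 in KO mice 312, 332 and 337, and 11.35, 8.29 and 10.91 in control mice 303, 392 and 393. The groups overlapped on day 2 and not on day 6. The day 6 difference was 1.52 ± 0.57 (log2, SE) with an adjusted p of 0.238 (limma), and 0.57 without control mouse 392.

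All 3 regulators had a difference above 0 on day 0 and none passed the test. C4bp, the plasma inhibitor of the classical and lectin convertase, had 12.76 to 13.44 with a median of 13.12 in KO livers on day 0, against 12.64, 12.74 and 12.58 in control livers, without overlap. Its log2 difference was 0.50 ± 0.22, with an adjusted p of 0.193 (limma). Cfi, the protease that inactivates C3b and C4b, was at 0.08 ± 0.14, and Vtn, the gene of vitronectin, which blocks insertion of the terminal complex, at 0.17 ± 0.13 (log2, SE).

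Of 7 vitamin K-dependent factors, 6 had a difference below 0 on day 0 and none was called. Pros1, the gene of protein S, the cofactor of activated protein C, had 9.05, 9.20, 9.93, 8.59, 9.22 and 9.44 in KO mice 250, 254, 258, 312, 332 and 337, against 7.89, 7.91 and 8.86 in control mice 263, 265 and 303. KO mouse 312 lay below control mouse 303, and the log2 difference of 1.02 ± 0.38 had an adjusted p of 0.101 (limma). F7, which starts coagulation with tissue factor, had 8.89, 8.81, 9.51, 8.96, 8.77 and 8.05 in the same KO mice, against 9.28, 9.62 and 9.86 in the control mice. Its groups overlapped at KO mouse 258, and its difference of −0.76 ± 0.35 had an adjusted p of 0.209.

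The remaining vitamin K-dependent genes stayed close to 0 in difference, at −0.05 ± 0.15 for F2, −0.01 ± 0.22 for F9, −0.09 ± 0.14 for F10, −0.20 ± 0.21 for Proz and −0.12 ± 0.13 for Proc (log2, SE). F7, F10 and Proz are neighbours on chromosome 8 and differed among themselves in the size of their differences.

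F11 and Klkb1, which encode factor XI and plasma prekallikrein, lie next to each other on chromosome 8 and carry the FOXA letters printed above. F11 had 8.34 to 9.63 with a median of 9.16 in KO livers on day 0, against 9.70, 10.79 and 9.96 in control livers, without overlap. The log2 difference was −1.06 ± 0.39, with an adjusted p of 0.102 (limma). Klkb1 had 11.10, 11.54, 10.67, 11.19, 11.26 and 11.41 in KO mice 250, 254, 258, 312, 332 and 337, against 11.47, 12.05 and 11.55 in control mice 263, 265 and 303. KO mouse 254 lay above control mouse 263, and the difference was −0.50 ± 0.28. F12, which starts contact activation, was at −0.02 ± 0.15 and Kng1, the gene of kininogen, at 0.05 ± 0.15.

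The cofactor gene F5, the carrier subunit gene F13b of factor XIII and the serpins had differences close to 0 on day 0. F5 was at 0.09 ± 0.25 and F13b at −0.12 ± 0.14 (log2, SE). Serpinc1, the gene of antithrombin, was at −0.02 ± 0.12, Serpind1, that of heparin cofactor II, at −0.05 ± 0.16 and Serpinf2, that of the plasmin inhibitor alpha-2-antiplasmin, at 0.02 ± 0.18. Their 95% intervals all lay within a 2-fold change. Hgfac, the protease that activates hepatocyte growth factor, was at −0.28 ± 0.26, and Plg, the gene of plasminogen, at −0.61 ± 0.60. Without KO mouse 337, Plg was at −0.18.

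In groups without overlap on day 0, Masp1, Masp2 and F11 were lower in KO livers and C6 and C4bp higher, 5 of 31 genes, against 19.8% of all tested genes.

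**Figure D3:**
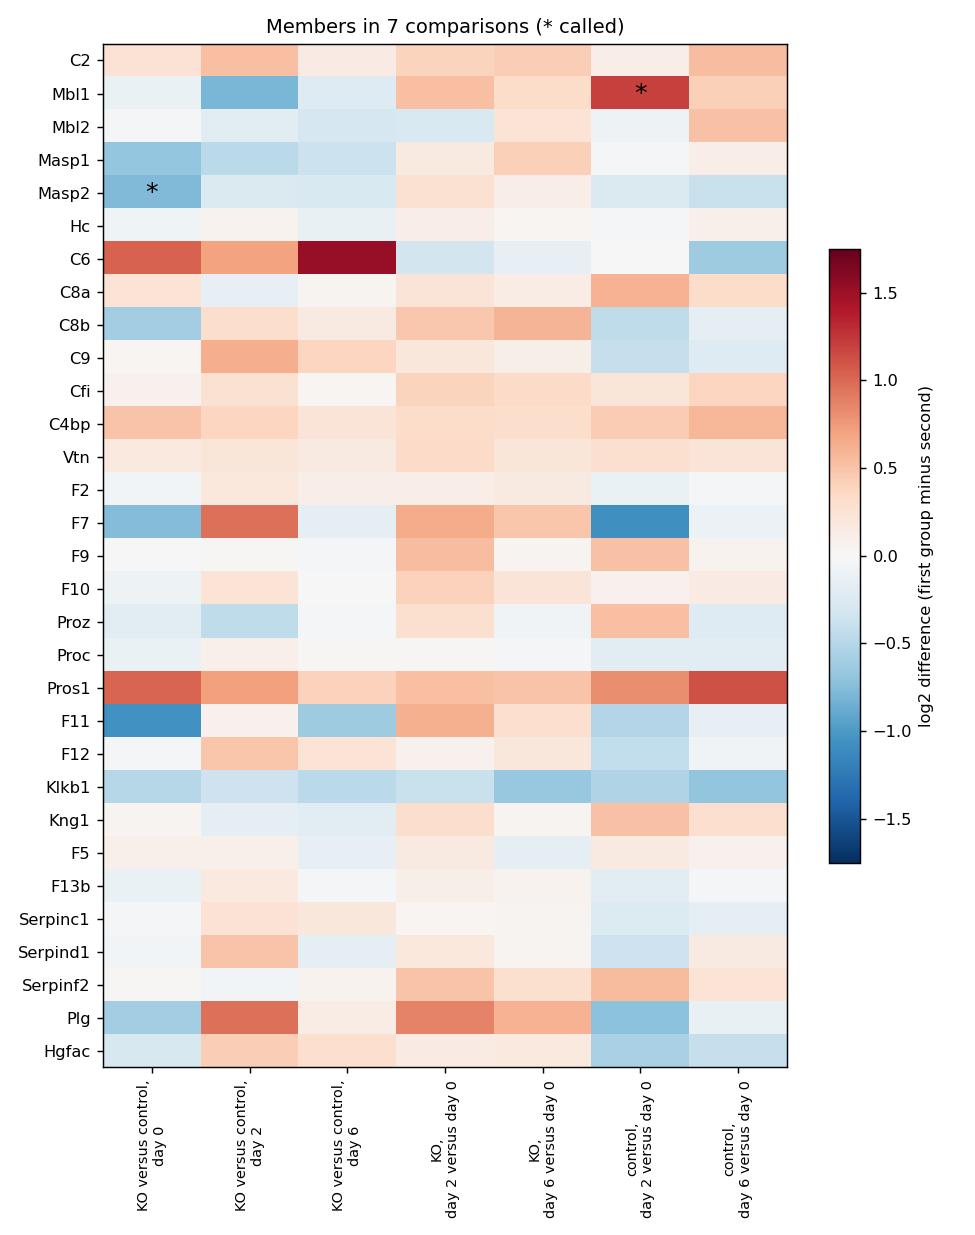
Log2 differences (colour, red for higher in the first-named group) of the 31 genes (rows) in 7 comparisons (columns). Stars mark the calls of limma, Masp2 in KO versus control livers on day 0 and Mbl1 in control livers on day 2 versus day 0.

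On day 2 after resection, 0 of 31 genes were called between KO and control livers by limma, against 5.71% of all tested genes. At an unadjusted p below 0.05 there were 4, Mbl1, F12, Serpind1 and F7, against 24.4% of all genes. The median difference of the 31 was 0.19, against −0.03 for all genes, and both fell by about the same when each array was centred on its own median, to 0.08 against −0.15. Without both control arrays of high Gapdh difference the median of the 31 was 0.04. F7, F10 and F12 were higher and Mbl1 was lower in KO livers without overlap, 4 of 31, against 20.1% of all genes. The chosen probe set of F10 was at 0.24 ± 0.16 (log2, SE). Its other probe sets gave −0.003 ± 0.235 and −0.26 ± 0.22, with overlapping groups.

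F12 was at 0.49 ± 0.17 with an adjusted p of 0.0953 and Serpind1 at 0.50 ± 0.18 with an adjusted p of 0.103 (log2, SE, limma). Without control mouse 265 on day 2, F12 was at 0.30. Without both control arrays of high Gapdh difference, F12 was at 0.16 and Serpind1 at 0.14. F7 had 9.44, 9.62 and 9.40 in KO mice 250, 254 and 258 on day 2, against 9.29, 9.04 and 7.23 in control mice 263, 264 and 265. The lowest value belongs to the array with the Gapdh difference of 9.5. The difference of 0.97 ± 0.40 was 0.32 without that array.

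On day 6, 0 of 31 genes were called by limma, against 1.73% of all tested genes, and 1 of 31, C6, had an unadjusted p below 0.05, against 12.9%. C6, F12 and Serpinc1 were higher in KO livers without overlap, against 8.63% of all genes in that direction. The median difference was 0.03 for the 31 genes and −0.03 for all genes, and with each array centred on its median the values were −0.15 and −0.20. With the chosen probe sets, the other differences on day 6 lay between −0.62 for F11 and 0.40 for Pros1. The chosen probe set of F10 was at −0.01 ± 0.164, and its other probe sets were at −0.543 ± 0.235 and −0.63 ± 0.223 (log2, SE). Their adjusted p were 0.332 and 0.204 in a limma fit of all probe sets. Pros1 had 9.83, 9.44 and 9.95 in KO mice 312, 332 and 337 and 10.07, 8.66 and 9.29 in control mice 303, 392 and 393, and the groups overlapped.

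Control livers on day 2 against day 0 show the change of these genes after surgery in the control mice. Mbl1, the gene of mannose-binding lectin A, was higher on day 2 and was the 1 gene of 31 called by limma, against 5.23% of all genes called higher and 9.51% called in either direction. There were 7 of 31 at an unadjusted p below 0.05, against 27.1% of all genes. With the mouse as a random block 3 of 31 were called, Mbl1, Kng1 and C8a, against 12.6% of all genes.

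Mbl1 had 12.11, 12.16 and 13.03 in control mice 263, 264 and 265 on day 2, against 11.28, 11.40 and 11.03 in control mice 263, 265 and 303 on day 0. The groups did not overlap, and both mice sampled on both days were higher on day 2. The mean was 12.43 ± 0.52 on day 2 and 11.24 ± 0.19 on day 0 (SD, n = 3 each), a log2 change of 1.20 ± 0.23 (SE) or 2.29-fold with an adjusted p of 0.00594 (limma). The change ran from 0.90 to 1.36 over 19 alternative settings. The adjusted p was 0.152 when only these 2 groups were fitted, where 0.369% of all genes were called, 0.111 without the 3 arrays of high Gapdh difference and 0.1 without both such control arrays, where the change was 0.92 and day 2 had 1 array.

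Of 5 neutrophil markers on the array, 2 passed the filter, S100a8 and S100a9. Both were also called higher in control livers on day 2, against 5.23% of all genes. Their log2 changes were 3.99 and 4.28, with adjusted p of 0.0208 and 0.0184 (limma). On day 2 their mean, centred over all arrays, was 3.68 in control mouse 265, against 0.505 and 1.785 in control mice 263 and 264. Their part in the change of Mbl1 was not tested. In control livers on day 6, Mbl1 had 11.84, 11.81 and 11.33 in mice 303, 392 and 393, all below the day 2 values, a change of −0.77 ± 0.23 from day 2 with an adjusted p of 0.0782 (limma), and of −0.48 without control mouse 265 on day 2. The mean log2 value over the 6 hepatocyte markers was 13.87 to 14.04 in control livers on day 2 and 14.08 to 14.46 on day 0, without overlap, and its part was not tested either.

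Mbl1 in KO livers had 10.95, 10.97, 11.39, 11.14, 10.97 and 11.28 in mice 250, 254, 258, 312, 332 and 337 on day 0, then 11.61, 11.35 and 11.96 in mice 250, 254 and 258 on day 2, and 11.45, 11.36 and 11.50 in mice 312, 332 and 337 on day 6. All KO values of day 2 lay below all control values of day 2. The day 2 difference between KO and control livers was −0.79 ± 0.23 (log2, SE) with an adjusted p of 0.0527 (limma), and 6 of 18 alternative settings brought it under the threshold. It was −0.50 without control mouse 265 on day 2, with an adjusted p of 0.185, and −0.52 without the 3 arrays of high Gapdh difference, with an adjusted p of 0.569. The difference between the day 2 changes of KO and control livers was −0.67 ± 0.31, with an adjusted p of 0.323, and −0.38 without control mouse 265 on day 2.

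Mbl2, the gene of mannose-binding lectin C, did not pass the test in any comparison. It had 13.26, 12.98 and 12.11 in control mice 263, 264 and 265 on day 2, against 12.94, 13.01 and 12.65 in control mice 263, 265 and 303 on day 0, a change of −0.08 ± 0.25 (log2, SE). The groups overlapped. Control mouse 265 on day 2, the array with the Gapdh difference of 9.5, held the lowest value of Mbl2 and the highest of Mbl1. Without that array the change of Mbl2 was 0.25.

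Kng1, C8a and Serpinf2 had higher values in every control liver of day 2 than in every one of day 0, by 0.51 ± 0.17, 0.61 ± 0.21 and 0.56 ± 0.21 (log2, SE), with adjusted p of 0.0653, 0.0675 and 0.0979 (limma). The second probe set of Kng1 was at 0.34 ± 0.22, with overlapping groups. Proc and F13b had lower values without overlap, so that 6 of 31 genes separated the groups, against 25.7% of all genes. F7 was at −1.07 ± 0.40 and F12 at −0.44 ± 0.17, with adjusted p of 0.0998 and 0.11. Without control mouse 265 on day 2, F7 was at −0.42 and F12 at −0.25. C8a was at 0.36 without control mouse 263 on day 0, and Serpinf2 at 0.37 without control mouse 263 on day 2.

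In control livers on day 6 against day 0, 0 of 31 genes were called by limma, against 2.86% of all genes, and 4 had an unadjusted p below 0.05, against 16.3%. These were Pros1 at 1.12 ± 0.43, Cfi at 0.38 ± 0.16, C4bp at 0.58 ± 0.26 and Klkb1 at −0.69 ± 0.33 (log2, SE). Without control mouse 392 on day 6, Klkb1 was at −0.41, and within control mouse 303, the 1 mouse sampled on both days, it was at −0.13. Klkb1 had 11.42, 10.42 and 11.15 in control mice 303, 392 and 393 on day 6, and 11.55, 11.33 and 10.61 in control mice 263, 264 and 265 on day 2. All day 6 values lay below the 3 values of day 0. Groups of 7 genes did not overlap, against 23.4% of all genes: Masp2, Klkb1 and Serpinc1 were lower, and Cfi, C4bp, Vtn and Kng1 higher. For the second probe sets of Masp2, Vtn and Kng1 the groups overlapped. F10 was at 0.14 ± 0.164 with its chosen probe set, and at 0.677 ± 0.235 and 0.607 ± 0.223 with its others (log2, SE). Between day 6 and day 2 in control livers, 0 of 31 were called, against 1.94% of all genes, and 6 had an unadjusted p below 0.05, against 21.7%.

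In KO livers, 0 of 31 genes were called on day 2 against day 0 by limma, and 0% of all tested genes were. At an unadjusted p below 0.05 there were 6, F10, Cfi, Serpinf2, Mbl1, F9 and Vtn, all with higher values on day 2, against 6% of all genes. The change was above 0 for 28 of 31 genes, with a median of 0.27, against 47.3% of all genes and a median of −0.02. It was above 0 for all 7 vitamin K-dependent factors, all 3 regulators and all 3 serpins. Over the alternative settings the count ran from 25 to 28 and the median from 0.22 to 0.32. Changes in this comparison were not limited to the 31 genes. Of 18 other plasma proteins of hepatocytes, 7 had an unadjusted p below 0.05 in either direction (limma), and of 8 acute phase or classical pathway genes, 2. Among the 18, mean log2 values rose from 12.95 to 13.94 for Itih3 and from 13.07 to 14.01 for Itih4. They fell from 10.57 to 9.72 for Serpina6 and from 15.17 to 14.96 for Ttr.

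The changes farthest from 0 were those of Plg at 0.87 ± 0.60, F7 at 0.66 ± 0.35 and F11 at 0.62 ± 0.39, none with an unadjusted p below 0.05 (log2, SE). Without KO mouse 337, Plg was at 0.44. Of the 6 genes with an unadjusted p below 0.05, Mbl1 was at 0.52 ± 0.20, F10, the protease that generates thrombin, was at 0.41 ± 0.14, Cfi at 0.40 ± 0.14, Serpinf2 at 0.49 ± 0.18, F9, the gene of the protease that activates factor X, at 0.54 ± 0.22, and Vtn at 0.33 ± 0.13 (log2, SE). The adjusted p of F10 was 0.618 (limma). The 95% interval lay within a 2-fold change for 25 of 31 genes, against 75.2% of all genes. With array weights 3 of 31 were called, Mbl1, Cfi and F9, against 1.91% of all genes. C4bp had higher values in every KO liver of day 2 than in every one of day 0, 1 of 31 genes, against 2.57% of all genes without overlap.

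**Figure D4:**
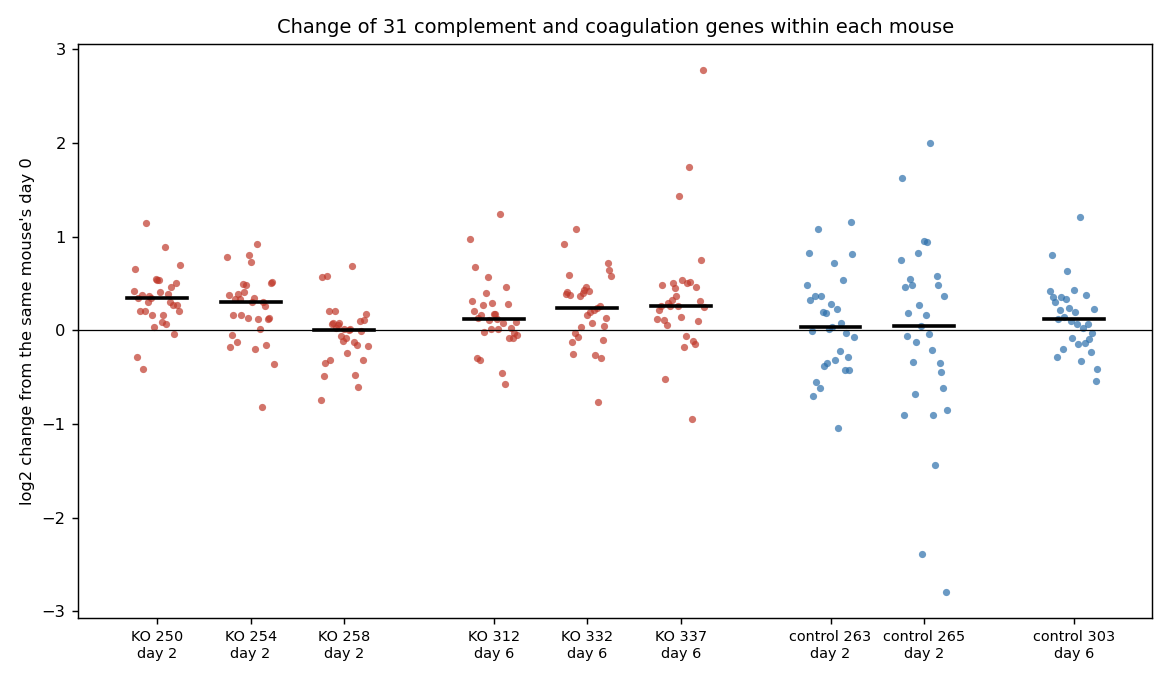
Log2 change of each of the 31 genes (points) from the day 0 sample of the same mouse (y axis), for each mouse sampled again on day 2 or day 6 (x axis), with KO in red and control in blue. Black lines are medians, at 0.35, 0.30 and 0 in the 3 KO mice of day 2.

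Within single KO mice, the median change of the 31 genes on day 2 was 0.35 in mouse 250, 0.30 in mouse 254 and 0 in mouse 258. The median was above 0 in 2 of 3 mice. The day 0 array of mouse 258 held the highest KO day 0 values of C2, Cfi and F9, among other genes. The mean over the 31 genes, each centred over all arrays, was 0.122 in that array. It was −0.206 to −0.044 in the other KO arrays of day 0. In all 3 pairs, 14 of 31 genes were higher on day 2 and 2 were lower, against 11% and 13% of all genes. On day 6 the medians were 0.12, 0.24 and 0.26 in KO mice 312, 332 and 337, and 16 genes were higher and 1 lower in every pair, against 12% and 18.9% of all genes. The mice of day 2 and day 6 are different animals. In control mice the medians were 0.04 and 0.05 on day 2 in mice 263 and 265, and 0.12 on day 6 in mouse 303.

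On day 6 against day 0 in KO livers, 0 of 31 genes were called by limma, against 0.137% of all genes, and 3 had an unadjusted p below 0.05, C8b, Cfi and Klkb1, against 5.44%. The change was above 0 for 26 of 31 genes with a median of 0.17, against 41.1% and −0.05 for all genes. With each array centred on its median these values were 20 genes and 0.08, against −0.14 for all genes. C8b and F12 were higher and Klkb1 lower without overlap, 3 of 31, against 3.5% of all genes.

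Klkb1 had 11.49, 10.72 and 10.19 in KO mice 250, 254 and 258 on day 2, and 10.62, 10.50 and 10.46 in KO mice 312, 332 and 337 on day 6. Its day 6 values all lay below the lowest of its 6 day 0 values, 10.67, with a change of −0.67 ± 0.28 (log2, SE) and an adjusted p of 0.796 (limma). Pros1 had 9.21, 10.12 and 9.95 in KO mice 250, 254 and 258 on day 2, and 8.12, 9.09 and 9.91 in control mice 263, 264 and 265. Between day 6 and day 2 in KO livers, 0 of 31 genes were called, against 0.123% of all genes, and 0 had an unadjusted p below 0.05, against 4.99%. Mbl2 was higher on day 6 than on day 2 and F9, Proz, Kng1 and Plg were lower without overlap, 5 of 31, against 13.3% of all genes.

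The test of whether the response to resection differed between the genotypes called 0 of 31 genes on day 2, where 0% of all genes were called, and 0 of 31 on day 6, against 0.164% of all genes (limma). At an unadjusted p below 0.05 there were 5 on day 2, F7, C8b, Serpind1, F12 and Mbl1, against 14.6% of all genes, and 1 on day 6, C8b, against 5.36%. KO minus control was 1.72 ± 0.53 for F7 (log2, SE), with an adjusted p of 0.187, and 1.08 without control mouse 265 on day 2. F7 had 9.25, 9.23 and 9.48 in KO mice 312, 332 and 337 on day 6 and 9.78, 9.59 and 9.09 in control mice 303, 392 and 393. The comparisons of KO with control livers and of days within a genotype share samples, so their values are not independent.

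Plg and F7 had their lowest values in the 2 arrays with the highest Gapdh difference. Plg had 10.77 in KO day 0 mouse 337 and 10.72 in control day 2 mouse 265, and 12.84 to 14.12 in the other 19 arrays. F7 had 8.05 and 7.23 in these arrays and 8.77 to 9.86 in the others. The part of RNA quality in either was not tested. Plg in control livers on day 2 against day 0 was at −0.72, and at 0.33 without control mouse 265 on day 2. The second probe set of F5 was higher in KO livers on day 2, by 1.21 ± 0.30 (log2, SE) with an adjusted p of 0.0273 in a limma fit of all probe sets, while the chosen one was at 0.09. Its values were 10.16 and 9.67 in control mice 263 and 265, the 2 control arrays with high Gapdh differences, and 11.37 in control mouse 264. This probe set was named after its values were seen.

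**Figure D5:**
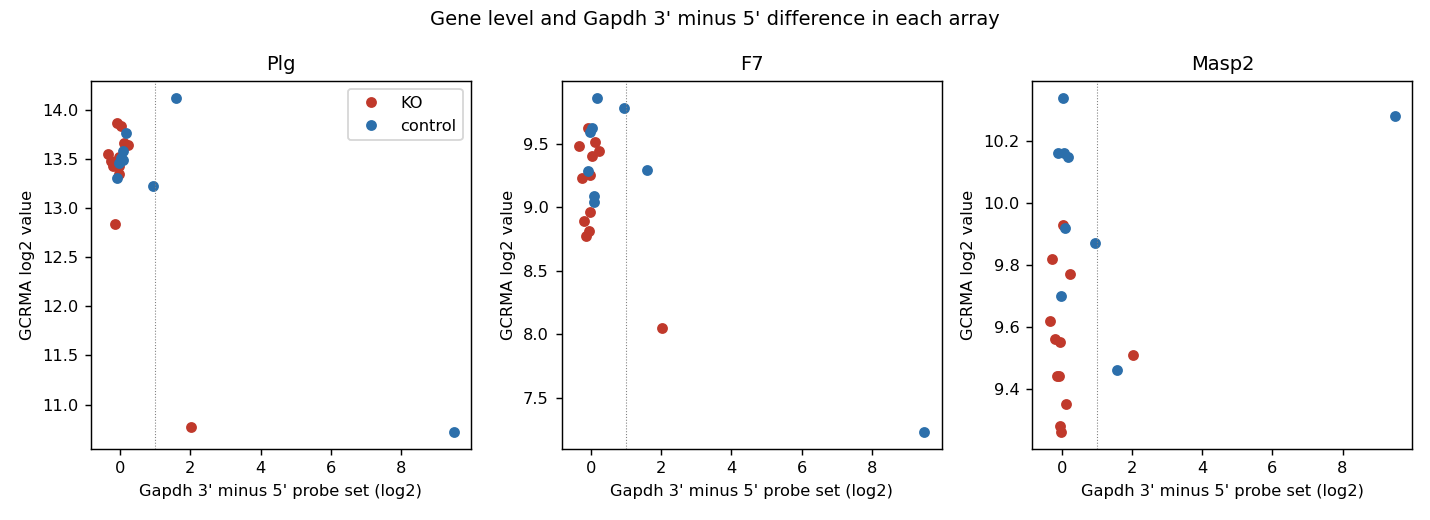
GCRMA log2 values of Plg, F7 and Masp2 (y axes) in each array against the difference between the 3' and 5' probe sets of Gapdh (x axes, log2), with KO in red and control in blue. Plg and F7 are lowest in the 2 arrays at 2.03 and 9.5, and the dotted line marks a difference of 1.

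Other genes of the same systems were counted by list. Of 19 tested complement and haemostasis genes made mainly outside hepatocytes, 6 were called higher and 0 lower in KO livers on day 0, against 6.79% and 2.87% of all tested genes. They were Anxa2 at 4.28 ± 0.42 and S100a10 at 1.18 ± 0.30, whose products form the cell-surface receptor of plasminogen, Plat, the tissue plasminogen activator, at 2.08 ± 0.36, Tfpi, the inhibitor of the tissue factor pathway, at 1.92 ± 0.37, F2r, a thrombin receptor, at 1.60 ± 0.35, and C3ar1, the receptor of C3a, at 2.17 ± 0.56 (log2, SE). The median difference over the 19 genes was 0.52, against −0.05 for the 31 hepatocyte genes. C3ar1 and Plat had means below the filter's log2 of 4 in every control group. These were 2.74 and 3.07 on day 0, against 4.92 and 5.15 in KO livers. Neither gene would have passed the filter on control arrays alone, so the count and the median are not independent of it. The mean log2 value over these 19 genes was 6.55 to 6.88 in KO livers on day 0 and 5.68 to 6.06 in control livers.

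Against the same shares of all genes, of 8 acute phase or classical pathway genes left out of the 31, Clu was called higher in KO livers on day 0, at 0.46 ± 0.12. Of 18 other plasma proteins of hepatocytes, Hpx, the gene of haemopexin, was called higher, at 0.51 ± 0.11. Of 7 genes of the vitamin K cycle and of factor secretion, 0 were called by limma and 1 had an unadjusted p below 0.05. Of 12 hepatocyte transcription factors, Nr1i3 was called lower, at −1.71 ± 0.52, and the median difference of the list was −0.45. Of 5 genes around hepatocyte growth factor, 0 were called and 1 had an unadjusted p below 0.05.

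In control livers on day 2 against day 0, Itih3, Itih4, Serpina10 and Hpx were called higher and Serpina6 lower among the 18 other plasma proteins, against 5.23% of all tested genes called higher and 4.28% lower. Serpina10 encodes the protein Z-dependent inhibitor and changed by 1.54 ± 0.32, while Proz itself was at 0.52 ± 0.24 and did not pass the test. The second probe set of Proz was at −0.49 ± 0.39, so its probe sets disagreed in direction, and their mean was at 0.02. Without control mouse 265 on day 2 the chosen probe set was at 0.34. Mcfd2, which helps factor V leave the endoplasmic reticulum, and Calu, an inhibitor of the vitamin K cycle, were higher by 0.84 ± 0.20 and 0.90 ± 0.22, 2 of 7 genes. Fga, the fibrinogen alpha chain, was 1 of 8 acute phase genes called, at 0.63 ± 0.17. Met, the receptor of hepatocyte growth factor and 1 of 5 tested genes around that factor, was lower by 2.75 on the log2 scale. Its mean was 6.12 on day 0 and 3.37 on day 2, the latter below the filter's log2 of 4. Control mice 263 and 265 on day 2 had high Gapdh differences, and the part of RNA quality in the change of Met was not tested.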

How the data were processed

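Trizol was used to extract total RNA from the livers, which was labelled with biotin and prepared for a 3-prime expression array, per the labels' protocols. The authors processed the arrays with GCRMA, per the submitters' processing notes, with no version, and further steps are not given in the sources used. The log2 scale of the deposited values was read from their range of 1.33 to 15.54. They were used as deposited: 22690 probe sets on 21 arrays, of which 20380 had 1 gene symbol in the platform annotation. The number of arrays limits the precision.

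The 31 measured genes had 42 probe sets, and 7 genes had several. The probe set with the highest mean stood for a gene, and the 7320 genes with 3 or more arrays over log2 4 were tested. All comparisons were contrasts within 1 limma fit of the 6 groups (limma 3.58.1, R 4.3.3), with 15 residual degrees of freedom and a two-sided p adjusted by Benjamini-Hochberg over all tested genes. The fit was tested on simulated data. Any of the 32 genes could be named, and values in every array are given for called genes and the 4 others with the widest range of group means. The members, lists and tests were chosen with earlier results of these data known. Promoter windows are from RefSeq. Figures were drawn with matplotlib 3.10.9.

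The labels number the mice, so arrays with the same number come from 1 animal and are paired. Over these 9 pairs, deviations from group means correlated at −0.0568 to 0.303, with 5 above 0.1. As alternatives, the mouse was fitted as a random block (correlation 0.108) or as a fixed block. In the main fit, p-values rest on 1 estimate of the spread within groups for each gene. It was pooled over all 6 groups and drawn by limma toward the spread of the other genes. Paired arrays were entered there as independent. Other alternatives were the filter, the probe sets, the normalization, the variance model, array weights, the samples fitted and leaving out each array.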

Additional observations from a re-analysis of the deposited data

Results flagged for a closer look

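In the 6 KO livers of day 0, 6 of the 31 genes had 1 array that stood apart from the other 5 by a gap of more than 0.625 of the range, Dixon's 95% critical value for 6 samples. Chance flags about 1 in 20 groups, and 31 groups were tested. KO mouse 258 was high for C2, at 10.04 against 8.81 to 9.25 in the other arrays, for Cfi, at 13.59 against 13.07 to 13.19, and for F9, at 11.48 against 10.75 to 10.92. KO mouse 332 was low for F2, at 13.03 against 13.37 to 13.51, and for Proc, at 12.17 against 12.46 to 12.63. KO mouse 337 was low for Plg, at 10.77 against 12.84 to 13.66, and its Gapdh 3' minus 5' difference was 2.03.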

How the results depend on the processing

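With 3 arrays in most groups and 31 genes, most results are differences that missed the threshold, and a missed threshold does not show that values did not differ. The number of genes called for KO against control livers was 1 on day 0, and 2 with arrays centred on their median or with eBayes trend and robust, 7 with array weights, 5 when only the compared groups were fitted, 3 without the 3 arrays of high Gapdh difference and 0 to 2 when each array was left out. On day 2 it was 0, and 1 (Mbl1) with a filter at log2 6, with the mean of all probe sets, with centred arrays or with eBayes trend and robust, and 0 to 3 when each array was left out, with 3 without control mouse 264. On day 6 it was 0, and 1 with array weights. For KO livers on day 2 against day 0 it was 0, and 3 with array weights. For control livers on day 2 against day 0 it was 1, and 2 with no filter or with quantile normalization, 3 with eBayes trend and robust, 3 with the replicate block of the mouse as a random effect, 0 when only the compared groups were fitted, 0 without the 3 arrays of high Gapdh difference, 0 without both such control arrays (chosen after seeing the data) and 1 to 7 when each array was left out, with 7 without control mouse 264 and 3 without control mouse 263. For control livers on day 6 against day 2 it was 0, and 0 to 3 when each array was left out, with 3 without control mouse 264 on day 2. Control mouse 264 had a Gapdh difference of 0.07. Each count given without it rests, for control livers on day 2, on mice 263 and 265 alone, with differences of 1.58 and 9.5. The replicate block changed no other number of calls, and as a fixed effect it could not be had for KO against control livers, where it equals the genotype. The counts for KO livers on day 6 against day 0 and against day 2, for control livers on day 6 against day 0 and for the differences in response were 0 in every setting run. Plg in control livers on day 2 against day 0 changed sign from −0.72 to 0.057 without the 3 arrays of high Gapdh difference or without both such control arrays, and ran from −1.37 to 0.33 when each array was left out, with 0.33 without control mouse 265 on day 2. Mbl2 in the same comparison was at −0.08, and at 0.074 with array weights, at 0.113 without the 3 arrays of high Gapdh difference or without both such control arrays, and at −0.32 to 0.25 when each array was left out. The share of all tested genes called also moved with the setting, as the shares given above for some settings show. These counts alone therefore do not tell a change in the 31 genes from a change in calls over all genes. Where a count moved, the cause was not tested.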
